A study of Mus musculus with 16 samples.

Results

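The course of imiquimod (IMQ) skin lesions under injections of lysophosphatidylcholine (LPC) was followed in mouse ear skin by RNA sequencing, as the difference between lesions taken on day 7 and on day 4. The libraries were chosen by their titles: 4 LPC mice killed on day 7 and 4 LPC mice killed on day 4, which are 8 of the 16 libraries of the series. The other 8 are mice given saline in place of LPC and killed on the same days, and their course served as the comparison. All 4 groups were BALB/c mice aged 8 weeks whose ears were treated with IMQ, so skin without IMQ is not part of any group used here. LPC mice were given 10 µl of LPC at 10 mM into the dermis, and vehicle mice the same volume of normal saline, on a plan of 6 daily injections. The labels do not give how many of these a mouse killed on day 4 had received. Each group held 4 mice with 1 library each, and every library is bulk RNA of a whole lesion, in which a lower share of a cell type and less RNA per cell cannot be told apart. Days and mouse numbers are those of the titles; the names of the deposited files give day 3 for day 4 and day 6 for day 7, and which count applies was not settled. In the text "day 4 mice" and "day 7 mice" mean LPC mice unless vehicle is named.

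IMQ activates Toll-like receptor 7 on dendritic cells and other leukocytes and gives a psoriasis-like rash in mice, with thick, poorly cornified epidermis and many neutrophils. In this model interleukin 23 (IL-23) acts on T cells that make IL-17 and IL-22, and these cytokines make keratinocytes divide and release neutrophil-attracting chemokines, antimicrobial proteins and stress keratins. LPC is the phospholipid left when phospholipase A2 removes a fatty acid from phosphatidylcholine. It is known as a signal of inflamed and damaged tissue that acts on leukocytes, endothelium and keratinocytes, in part through receptors such as Gpr132. Keratinocytes leaving the basal layer change from keratins 5 and 14 to keratins 1 and 10, and then make the proteins of the cornified envelope, among them loricrin, filaggrin and the late cornified envelope (LCE) family.

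Expected counts summed to between 18956776 and 20131513 in the 8 LPC libraries, which listed 17215 to 17677 genes each. A count of 3 was worth 0.147 to 0.181 CPM (the count scaled to a common library size and for composition), the floor used for a gene at 0. Keratinocyte markers (Krt5, Krt14, Krt1, Krt10 and Lor) summed to 20581 CPM or more in every LPC library. The day 7 libraries stood apart from each other before any test: Pearson correlations of log2 CPM were 0.978 between mice 1 and 3 and 0.966 between mice 2 and 4, but 0.891 to 0.909 for the 4 pairs across them. Between day 4 mice they were 0.982 for mice 2 and 3, 0.972 for mice 1 and 4, and 0.943 to 0.962 across these pairs. The 4 hair follicle markers summed to 504 and 949 CPM in day 4 mice 2 and 3, and to 91.8 and 67.6 CPM in day 4 mice 1 and 4. No fit left out a pair of day 4 mice. The 7 sarcomere markers (Acta1, Ckm, Mb, Tnnt3, Myh4, Tnnt1 and Mylpf) summed to 7844 and 9858 CPM in day 7 mice 2 and 4, to 608 and 183 CPM in mice 1 and 3, and to 140 to 1452 CPM in the day 4 mice. The 5 adipocyte markers summed to 459 and 1909 CPM in day 7 mice 2 and 4, to 33.1 and 116 CPM in mice 1 and 3, and to 66.7 to 275 CPM at day 4, with Lep at 0 in day 7 mouse 1. The 5 neutrophil markers summed to 11173 and 12586 CPM in day 7 mice 1 and 3, against 5376 and 4330 CPM in mice 2 and 4 and 410 to 2705 CPM at day 4. Counts over many of the gene lists are therefore also given with either of these day 7 pairs left out. The day 7 pairs were picked from these same values, so each such fit keeps 2 day 7 mice that are alike. Its counts can be larger for that and are descriptions, not independent support.

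Between day 4 and day 7 of the LPC lesions, genes called higher included listed genes of monocytes and macrophages, of the interferon response, of collagens and of vessels. Genes called lower included those of the cornified envelope, Langerhans cells and MHC class II, the sebaceous gland and the clock. Fits that left out 1 LPC mouse in turn kept 13 of 17 calls in terminal differentiation throughout, 6 of 14 in macrophages, 3 of 7 in Langerhans and MHC class II, 2 of 8 in the clock, 1 of 7 in the interferon response and in the sebaceous gland, and 0 of the 9 collagen and 8 endothelial calls. Of 15782 genes tested, 1736 (11.0%) were called at an adjusted p below 0.05 (edgeR quasi-likelihood test, Benjamini-Hochberg over all genes, as for every adjusted p given here). Of these, 1084 (6.87%) were higher at day 7 and 652 (4.13%) lower, and 1135 (7.19%) changed more than 2-fold, 747 (4.73%) up and 388 (2.46%) down. The split between directions turned with the unit: limma on log2(FPKM + 0.1) called 583 higher and 1035 lower, and on log2(FPKM + 1) 576 and 939. On the FPKM + 0.1 scale the median of all genes was -0.12, against 0.03 for counts, and its directions are to be read against that shift. The 4 day 7 libraries did not overlap the 4 day 4 libraries for 2694 genes (17.1%), among them 1422 of the called genes. The count of calls ran from 518 without day 4 mouse 2 to 2207 without day 7 mouse 3. It was 819 without day 4 mouse 1, 526 without day 4 mouse 3, 820 without day 7 mouse 2 and 1136 without day 7 mouse 4, and 423 genes (288 higher, 135 lower) were called in the full fit and in all 8 fits that left out 1 LPC mouse. Without day 7 mice 2 and 4 the test called 851 higher and 866 lower, and without day 7 mice 1 and 3 it called 2640 and 1690. List counts from these fits are to be read against these numbers. DESeq2 called 1884 genes higher and 1189 lower, against which its list counts are to be read. A total of 457 genes (302 higher, 155 lower) were called with all mice and with either pair left out.

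**Figure D1:**
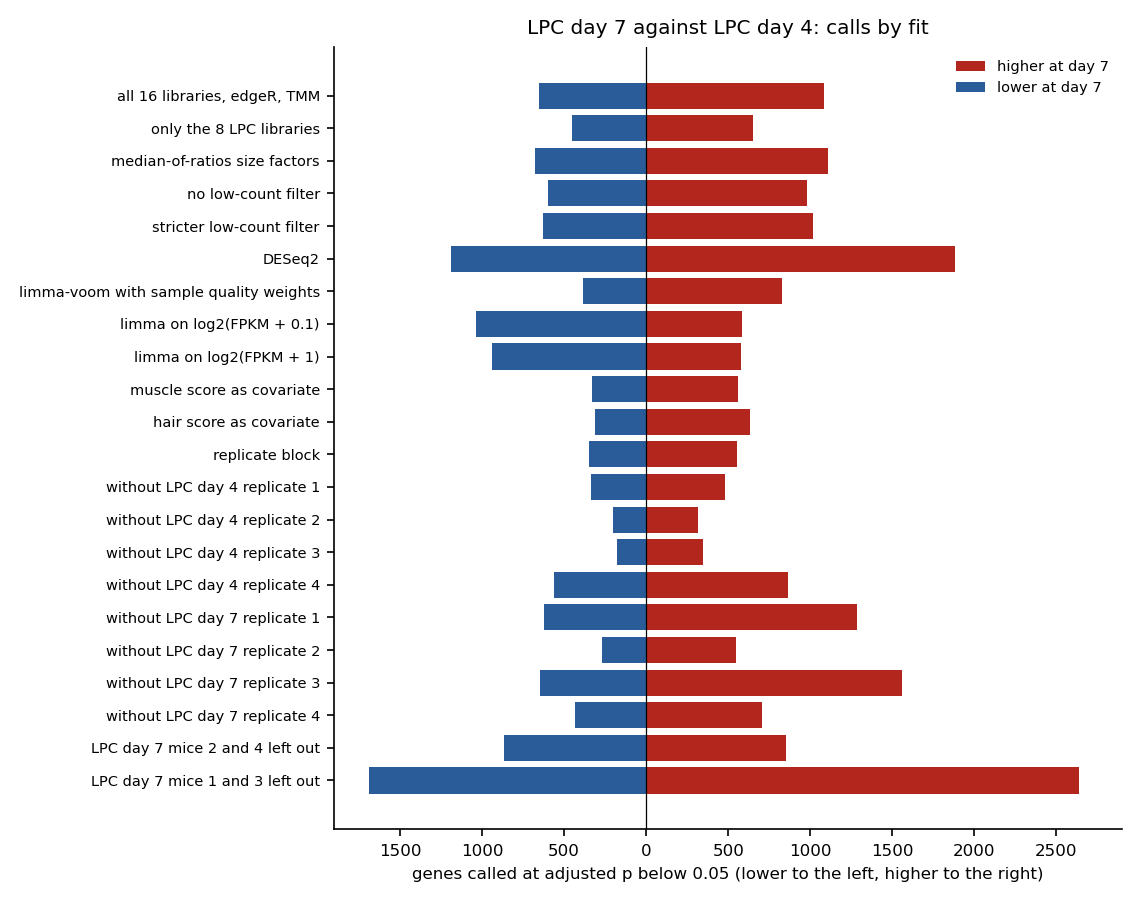
Bars give the number of genes called higher (red, to the right) and lower (blue, to the left) at day 7 in each fit of LPC day 7 against LPC day 4. The counts with FPKM values are the ones in which falls outnumber rises most, and the fit without day 7 mice 1 and 3 has the longest bars, with 2640 and 1690 genes.

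The same interval without LPC gave no gene past the threshold. In the vehicle course 0 of 15782 genes (0.00%) were called by the same edgeR fit, 2050 had an unadjusted p below 0.05 against 4854 in the LPC course, and the smallest adjusted p was 0.16. Vehicle libraries of the 2 days did not overlap for 980 genes (6.21%). Genes called higher with LPC had a median log2 change (fold change, day 7 over day 4) of 1.43 in the LPC course and 0.28 in the vehicle course, and those called lower had -1.16 and -0.21. The 2 courses share no library, only the fit. A call in the LPC course and not in the vehicle course does not show that they differ, so the difference between them was tested itself, as the LPC change minus the vehicle change. It called 0 genes (smallest adjusted p 0.0583, with 2674 genes at an unadjusted p below 0.05), whereas DESeq2 called 585 and limma-voom with sample weights 10. This count rested on single mice and on the day 7 pairs: it was 214 without vehicle day 4 mouse 3, 68 without LPC day 7 mice 2 and 4, and 2798 without LPC day 7 mice 1 and 3. Each difference between courses below is therefore given with its adjusted p, and with edgeR none passed.

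For 18 of 15782 genes the 2 days did not overlap in either course and moved in opposite directions, 12 of them higher at day 7 with vehicle and lower with LPC. Another 105 genes without overlap moved the same way in both courses. The days did not overlap for 17.1% of genes with LPC and 6.21% with vehicle. Whether 18 is more than these shares give was not tested. The 18 genes were picked out after their values were seen. Krt10 was one of them, and the smallest p of the difference belonged to Tbx3, a developmental transcription factor. Tbx3 had 4.38, 3.66, 4.83 and 4.48 CPM in day 4 mice 1 to 4 and 8.61, 10.6, 8.26 and 10.3 CPM in day 7 mice 1 to 4, against 13.2, 9.18, 7.78 and 11.3 CPM in vehicle day 4 and 3.23, 4.02, 5.43 and 6.11 CPM in vehicle day 7 mice. Its change with LPC exceeded that with vehicle by 2.26 on the log2 scale (adjusted p = 0.0583). Wnt7b, a Wnt ligand of the epidermis, had 40.1, 39.4, 37.2 and 30.6 CPM in day 4 mice and 21.5, 15.4, 15.2 and 19.8 CPM in day 7 mice, against 35.1, 23.1, 35.9 and 16.1 CPM and 41.8, 40.0, 50.8 and 44.4 CPM with vehicle. It fell with LPC (log2 fold change -1.03, adjusted p = 0.013) and had a log2 change of 0.68 with vehicle (adjusted p = 0.237). The adjusted p of the difference was 0.0713.

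Called genes of terminal epidermal differentiation were lower at day 7, while the list as a whole moved both ways. Of 45 tested, 17 fell and 0 rose, against 4.13% and 6.87% of all genes. DESeq2 called 20 falls and 4 rises on the list, against 1189 falls and 1884 rises over all genes. A total of 19 had a log2 fold change above 0. At an unadjusted edgeR p below 0.05 there were 24 falls and 8 rises. The list had a median log2 fold change of -0.69 with LPC and 0.26 with vehicle, against 0.03 and 0.00 over all genes. The 17 are 11 Lce1 genes, which are near-identical neighbours between which the authors' counting may have divided reads, and Krt2, Krt10, Lor, Hrnr, Mt4 and Aspg. The list's count was 19 down and 3 up without day 7 mice 2 and 4, and 15 down and 0 up without mice 1 and 3, so the list had falls with either pair.

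Krt2 (Entrez 16681, chromosome 15, 101810689 to 101818956 on GRCm38), the type II keratin of the uppermost living layers, had 4376, 7548, 9458 and 6860.3 CPM in day 4 mice 1 to 4 and 635, 36.7, 89.8 and 99.8 CPM in day 7 mice 1 to 4. Every day 7 mouse lay below every day 4 mouse, with a log2 change of -5.03 ± 1.10 (approximate SE, adjusted p = 0.0145). In vehicle mice the level was 6264, 1772, 9122 and 1743 CPM at day 4 and 481, 3653, 1150.2 and 11000.5 CPM at day 7, which overlap, and the difference between the courses was -4.82 ± 1.38 (adjusted p = 0.168). Krt10 (Entrez 16661, chromosome 11, 99385254 to 99397449), the type I keratin of the suprabasal layers, had 3055, 6948, 6918 and 4633 CPM at day 4 and 937, 2954, 1626 and 1082 CPM at day 7, a fall of 1.71 ± 0.41 on the log2 scale (adjusted p = 0.021). The Krt10 call ended in 3 of the 8 fits without 1 LPC mouse (adjusted p up to 0.0632). With vehicle Krt10 went the other way, from 4965, 1722, 4442 and 2272 CPM to 7951, 6598, 8528 and 8100.2 CPM, and neither course overlapped between the days. The difference was -2.93 ± 0.58 with adjusted p = 0.106. Krt1, the usual partner of Krt10, had 2834, 3366, 2166 and 1636 CPM at day 4 and 1711, 4193, 2262 and 1716 CPM at day 7, with overlapping groups and a log2 change of -0.02 ± 0.42 (adjusted p = 0.981), while the vehicle course had 2.22.

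Among envelope genes, Lce1k had 45.2, 79.6, 99.1 and 70.3 CPM in day 4 mice and 6.08, 6.93, 8.04 and 11.9 CPM in day 7 mice, with no overlap and a log2 change of -3.16 ± 0.54 (adjusted p = 0.00522). Lce1l had 68.3, 153, 249 and 124 CPM and 7.404, 5.97, 9.62 and 17.8 CPM, a change of -3.86 ± 0.76 (adjusted p = 0.00985). Loricrin (Lor), the main envelope protein, fell from 1936, 4816, 5915 and 3379 CPM to 521, 1059, 597 and 1176 CPM (-2.26 ± 0.55, adjusted p = 0.0221). The Lor call ended without day 4 mouse 2 (adjusted p = 0.0579) and without day 4 mouse 3 (adjusted p = 0.0653). Filaggrin (Flg), which bundles keratin and yields moisture-holding amino acids, had 211, 1000.4, 1214 and 361 CPM at day 4 and 47.1, 325, 140.2 and 157 CPM at day 7, and its log2 change of -2.06 ± 0.64 missed the threshold (adjusted p = 0.0502). The metallothionein gene Mt4, which is made in stratified epithelium, had 42.4, 104, 134 and 41.2 CPM and then 0.722, 8.58, 4.35 and 5.35 CPM, without overlap (-4.07 ± 0.75, adjusted p = 0.00746). Skint10, a member of the keratinocyte Skint family of immunoglobulin-like membrane proteins, had one of the smallest p-values among the falls, from 14.0, 19.2, 16.1 and 19.6 CPM to 1.87, 2.81, 2.39 and 3.74 CPM (-2.67 ± 0.33, adjusted p = 0.00216). It was picked out for that p after its values were seen, as were Itgal, Hpcal1, Lcp2 and Emilin2 below.

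Basal keratinocyte genes gave 1 call. Of 14 basal keratinocyte genes, 0 rose and 1 fell (all genes 6.87% and 4.13%): Dst, a linker of keratin to hemidesmosomes, at -0.80 ± 0.21. The Dst call ended in 3 of the 8 fits without 1 LPC mouse (adjusted p up to 0.0796). Krt5 had 5627, 5895, 6222 and 5567 CPM at day 4 and 10814, 3882, 7198 and 7362 CPM at day 7, where mouse 2 lay below and mice 1, 3 and 4 above all day 4 mice (0.33 ± 0.34, adjusted p = 0.538). Krt14 had a log2 change of 0.69 ± 0.33 (adjusted p = 0.177). Enzymes of barrier lipids were split, with 3 rises and 3 falls among 24 tested (all genes 6.87% and 4.13%) and a median of 0.15. Cers3, the ceramide synthase for very long acyl chains, went from 71.0, 55.7, 59.2 and 53.1 to 149.5, 86.7, 139.6 and 107 CPM (1.01 ± 0.27), and Sdr9c7, a dehydrogenase of acylceramide processing, had a log2 change of 0.95 ± 0.26. Aloxe3, an epidermal lipoxygenase, had -0.94 ± 0.24 and Fa2h, the fatty acid 2-hydroxylase, -2.27 ± 0.61. Leaving out 1 LPC mouse ended the calls of Cers3, Sdr9c7 and Fa2h in 5 of 8 fits each and that of Aloxe3 in 3.

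Stress keratins and antimicrobial proteins, which mark activated keratinocytes, had a median of 1.33 with LPC and 0.94 with vehicle. Of 24 tested, 4 rose (6.87% of all genes did) and 0 fell, and 1 to 3 rose with 1 LPC mouse left out. There were 5 rises and 0 falls without day 7 mice 2 and 4, and 3 and 1 without mice 1 and 3. Krt6a, a keratin induced in wounds and psoriatic plaques, had 2331, 1404, 1068 and 1513 CPM in day 4 mice and 11022, 3418, 9686 and 5916 CPM in day 7 mice, with the higher values in mice 1 and 3 and no overlap (2.25 ± 0.61, adjusted p = 0.0329). The Krt6a call ended in 5 of the 8 fits without 1 LPC mouse (adjusted p up to 0.0946). Its change with vehicle was 1.32. Krt16 had a log2 change of 1.38 ± 0.58 (adjusted p = 0.121) and Krt17 of 0.87 ± 0.43 (adjusted p = 0.182), neither past the threshold. Saa3, an acute phase protein, had 52.6, 99.3, 27.1 and 122 CPM and 359.8, 937, 335 and 1744 CPM, highest in mice 2 and 4 (3.49 ± 0.74, adjusted p = 0.0132), and its call held in every fit without 1 LPC mouse. Serpinb3a, a serpin of the squamous cell carcinoma antigen family with close paralogs, went from 21.8, 5.72, 4.00 and 9.51 to 52.0, 97.9, 92.9 and 98.98 CPM (3.06 ± 0.93, adjusted p = 0.0486). The Serpinb3a call ended in 7 of the 8 fits without 1 LPC mouse (adjusted p up to 0.127).

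Of 31 macrophage and monocyte genes tested, 14 rose and 0 fell, with a median of 1.92 (vehicle 0.69) (all genes 6.87% up, 4.13% down). With 1 LPC mouse left out 6 to 23 rose. The count was 24 up with day 7 mice 1 and 3 left out, a fit that called 2640 genes up and 1690 down. It was 5 up and 1 down with mice 2 and 4 left out, where 851 and 866 genes were called. The resident macrophage markers differed between mice: Adgre1, Csf1r, C1qa, Cd68 and Mrc1 together summed to 929 and 512 CPM in day 7 mice 2 and 4 and to 173 and 149 CPM in mice 1 and 3, and the day 4 mice lay at 105 to 196 CPM.

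Fc receptor and integrin genes that monocytes and neutrophils share were higher in all 4 day 7 mice. Fcgr3 (Entrez 14131, chromosome 1, 171051169 to 171065915), the low-affinity IgG receptor III, had 16.3, 14.0, 10.7 and 21.7 CPM in day 4 mice 1 to 4 and 102, 97.3, 75.0 and 73.5 CPM in day 7 mice 1 to 4. The lowest day 7 mouse was above the highest day 4 mouse, with a log2 change of 2.47 ± 0.33 (approximate SE, adjusted p = 0.00315), and the difference from the vehicle course was 1.78 ± 0.45 (adjusted p = 0.149). Itgam (Entrez 16409, chromosome 7, 128062640 to 128118491), the CD11b chain of complement receptor 3, had 26.4, 17.7, 15.9 and 52.6 CPM and 157, 159, 134 and 215 CPM, again without overlap (2.56 ± 0.47, adjusted p = 0.0073). Fcgr4, an activating receptor for IgG2, had 3.15, 2.74, 1.40 and 6.72 CPM and then 34.2, 50.2, 21.2 and 110.2 CPM (3.94 ± 0.75, adjusted p = 0.00843). These 3 genes were high in mice of both day 7 pairs, and their calls held in every fit without 1 LPC mouse.

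Genes of inflammatory monocytes were highest in mice 2 and 4. Fcgr1, the high-affinity IgG receptor, had 3.10, 1.81, 5.09 and 7.89 CPM at day 4 and 19.3, 98.3, 19.4 and 166 CPM at day 7 (4.08 ± 0.83, adjusted p = 0.0114). Plac8 had 6.99, 3.57, 4.78 and 7.63 CPM and 47.0, 115, 43.7 and 166 CPM (4.02 ± 0.80, adjusted p = 0.0102). In both genes the groups did not overlap, mice 2 and 4 were well above mice 1 and 3, and the calls held without any 1 LPC mouse. Ccr2, the receptor that brings monocytes out of blood, had 2.78, 0.880, 3.38 and 2.34 CPM and 3.73, 33.0, 4.40 and 38.8 CPM, with mice 1 and 3 close to the day 4 range (3.09 ± 0.84, adjusted p = 0.0321). The Ccr2 call ended in 6 of the 8 fits without 1 LPC mouse (adjusted p up to 0.0935). The leukocyte genes Itgal and Lcp2, and Emilin2 and Hpcal1, had some of the smallest p-values of all. Itgal, the integrin chain of LFA-1, had 3.74, 4.74, 5.97 and 5.44 CPM and 28.0, 22.9, 21.6 and 29.2 CPM (2.35 ± 0.25, adjusted p = 0.00109), with a difference from the vehicle course of 2.10 ± 0.34 (adjusted p = 0.067). Lcp2, the adaptor SLP-76 of leukocyte receptor signalling, had 2.21 ± 0.26 (adjusted p = 0.00216), Emilin2, an extracellular matrix glycoprotein, 2.00 ± 0.25 (adjusted p = 0.00216) and Hpcal1, a calcium sensor, 1.12 ± 0.12 (adjusted p = 0.00109). In each of them the 4 mice of one day lay on one side of the 4 of the other.

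**Figure D2:**
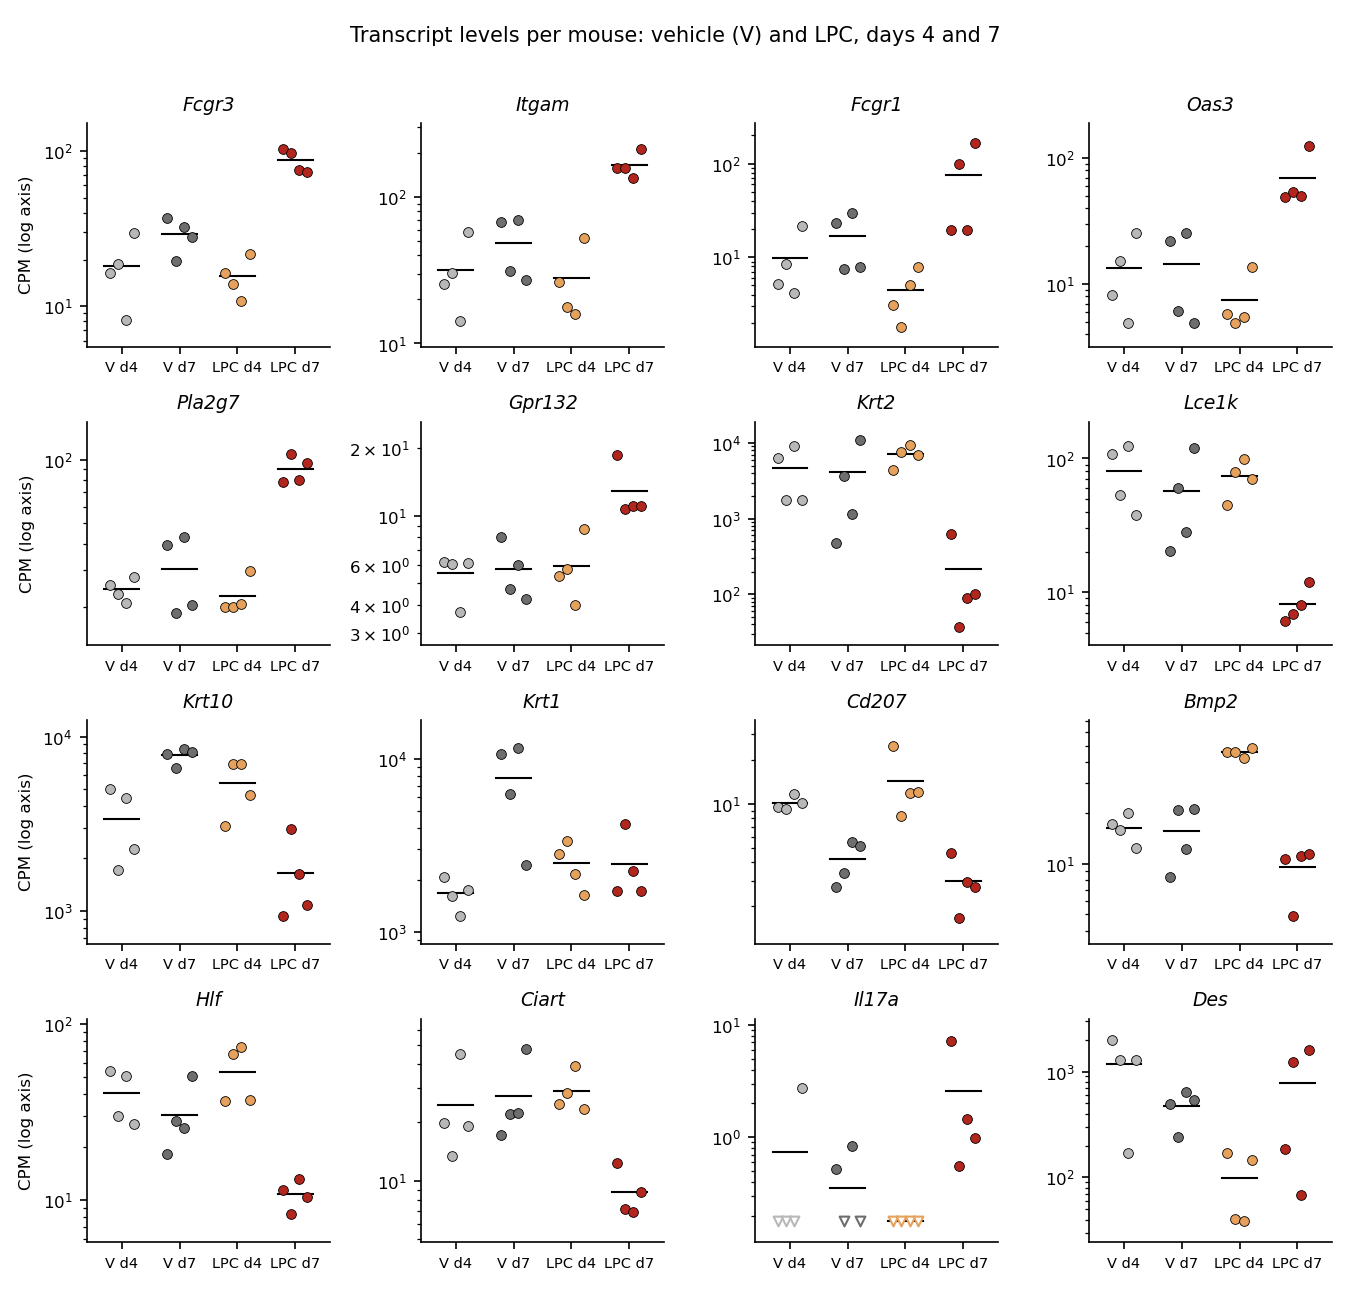
CPM on a log axis for 16 genes in vehicle (V, greys) and LPC (orange, day 4; red, day 7) mice, with 4 mice per group in the order of their numbers and a line at the group mean; open triangles stand for values below the largest 3-count floor of 0.181 CPM. Fcgr3, Itgam and Pla2g7 are higher and Krt2, Lce1k, Bmp2 and Hlf lower in all 4 LPC day 7 mice than in any LPC day 4 mouse, while Des is high in only 2 of the 4.

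Neutrophil genes had a median of 1.78 (vehicle 0.20), and 5 rose and 1 fell of 27 tested (all genes 6.87% and 4.13%). DESeq2 called 13 and 2 (1884 and 1189 over all genes), and without day 4 mouse 2 or mouse 3 edgeR called 0. The list had 8 rises and 1 fall without day 7 mice 2 and 4, and 2 and 1 without mice 1 and 3. Csf3r, the receptor for granulocyte colony-stimulating factor, had 29.2, 24.4, 17.9 and 58.6 CPM at day 4 and 257, 205, 225 and 141 CPM at day 7, without overlap (2.67 ± 0.60, adjusted p = 0.0156). The Csf3r call ended without day 4 mouse 2 (adjusted p = 0.0554) and without day 4 mouse 3 (adjusted p = 0.0555). Clec4e, a lectin that senses damaged cells, had 10.2, 9.09, 5.04 and 25.8 CPM and 66.1, 46.4, 82.2 and 49.2 CPM (2.28 ± 0.66, adjusted p = 0.0405). The Clec4e call ended in 7 of the 8 fits without 1 LPC mouse (adjusted p up to 0.11). S100a8 and S100a9, the calprotectin subunits of neutrophils and keratinocytes, did not pass: S100a9 had 1248, 1287, 221 and 1154 CPM and 6741, 3325, 7727 and 2438 CPM, with no overlap (2.37 ± 0.97, adjusted p = 0.113). Mpo, the myeloperoxidase of immature neutrophils, fell, from 2.62, 4.64, 5.87 and 0.967 CPM to 0.482, 0.552, 0.163 and 0.571 CPM (-2.97 ± 0.71, adjusted p = 0.0201). The Mpo call ended without day 4 mouse 2 (adjusted p = 0.0561) and without day 4 mouse 3 (adjusted p = 0.062).

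Of 17 neutrophil-attracting chemokines, growth factors and their receptors 4 rose and 0 fell (all genes 6.87% and 4.13%). Of the 4, 3 are receptors (Csf3r, Cxcr2 and Csf2rb). Without day 4 mouse 2 or mouse 3 the list had 0 rises. It had 8 rises and 1 fall without day 7 mice 2 and 4, and 2 and 1 without mice 1 and 3. The ligands were split between the day 7 mice. Cxcl2 had 266, 242, 49.0 and 402 CPM in day 4 mice and 2008, 275, 1634 and 212 CPM in day 7 mice (2.11 ± 1.05, adjusted p = 0.186), and Csf3, the granulocyte colony-stimulating factor, 13.3, 17.5, 4.57 and 38.0 CPM and 286, 17.7, 164 and 30.6 CPM (2.76 ± 1.01, adjusted p = 0.0836). Cxcl1 had 316, 100.5, 149.9 and 199 CPM and 964, 47.3, 503 and 61.8 CPM (1.04 ± 0.77, adjusted p = 0.376). In all 3, day 7 mice 1 and 3 lay far above the day 4 mice and mice 2 and 4 within or below their range. Ppbp, a platelet chemokine, was the called ligand, with mouse 4 within the day 4 range: 1.76, 0.782, 0.363 and 1.02 CPM and 6.86, 7.63, 7.12 and 0.830 CPM (2.51 ± 0.68, adjusted p = 0.0317). The Ppbp call ended in 4 of the 8 fits without 1 LPC mouse (adjusted p up to 0.0918).

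Cytokines of the IL-17 pathway were near the detection floor at day 4. Of 23 genes tested on the IL-23/IL-17 list 6 rose (Il17a, Il17f, Il17c, Il22, Il12a and Il10rb) and 1 fell (all genes 6.87% and 4.13%). The list had a median of 0.58 (vehicle -0.24). The rises were 8 without day 7 mice 2 and 4, 1 without mice 1 and 3, and 1 to 6 with 1 LPC mouse left out. Il17a had 4 counts in the 4 day 4 libraries together and 177 at day 7, 46.6 times as many after scaling for depth (95% Clopper-Pearson limits 17.9 and 173, for counting error only). Il22 had 3 counts and 160, a ratio of 56.1 (18.9 to 275), and Il17f 31 counts and 513, a ratio of 17.4 (12.1 to 25.9). Day 7 mouse 1 held most of each: for Il17a the day 7 mice had 7.22, 0.552, 1.47 and 0.986 CPM, for Il22 5.12, 1.20, 1.41 and 1.298 CPM and for Il17f 17.8, 2.71, 4.78 and 3.94 CPM. The calls were near the threshold (adjusted p = 0.0447, 0.0444 and 0.0409) and ended in 7 of 8 fits without 1 LPC mouse for all 3. In vehicle mice Il17a had 0.159, 0.0494, 0 and 2.75 CPM at day 4 and 0.521, 0, 0.843 and 0.0489 CPM at day 7, and the differences between the courses had adjusted p = 0.186, 0.209 and 0.197.

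Other cytokines and receptors of the pathway were mixed. Il23a, the specific subunit of IL-23, had 1.87, 0.635, 1.25 and 1.63 CPM at day 4 and 3.61, 0.552, 3.21 and 0.727 CPM at day 7, with overlap (0.58 ± 0.67, adjusted p = 0.583). Tnf had 0.12 ± 0.49 (adjusted p = 0.888), and Il6 4.75, 3.27, 3.48 and 17.7 CPM and 117, 6.22, 87.0 and 5.45 CPM, high in mice 1 and 3 alone (2.89 ± 1.11, adjusted p = 0.0986). Il12a, a subunit of IL-12 and IL-35, rose from 0.801, 0.440, 0.0519 and 0.661 CPM to 4.63, 1.36, 4.02 and 1.19 CPM (2.50 ± 0.65, adjusted p = 0.0282). The Il12a call ended in 3 of the 8 fits without 1 LPC mouse (adjusted p up to 0.0818). Il10rb, the shared receptor chain for IL-22 and IL-10, rose in all 4 day 7 mice, from 21.99, 23.9, 27.6 and 26.5 CPM to 38.1, 55.1, 34.8 and 43.1 CPM (0.78 ± 0.14, adjusted p = 0.00686), and its call held without any 1 LPC mouse. Il22ra2, the soluble IL-22 binding protein, fell from 8.59, 12.8, 10.9 and 5.65 CPM to 3.55, 4.07, 4.78 and 4.57 CPM (-1.16 ± 0.30, adjusted p = 0.0284). The Il22ra2 call ended in 4 of the 8 fits without 1 LPC mouse (adjusted p up to 0.0891).

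In the IL-1 and IL-36 family 4 of 18 rose and 1 fell (all genes 6.87% and 4.13%), and 1 rose in each of the fits without day 4 mouse 1, 2 or 3. Without day 7 mice 2 and 4 there were 5 rises and 2 falls, and without mice 1 and 3 there were 3 and 1. The antagonists Il18bp, the IL-18 binding protein (1.95 ± 0.41, adjusted p = 0.0129), and Il1rn, the IL-1 receptor antagonist (1.57 ± 0.43, adjusted p = 0.0341), were among the rises, with the IL-36 agonists Il1f6 and Il1f9. Il18bp had 4.38, 3.76, 3.84 and 6.00 CPM at day 4 and 9.09, 19.4, 7.88 and 33.0 CPM at day 7, without overlap, and kept its call without any 1 LPC mouse. As for Il1rn, its call ended in 4 of the 8 fits without 1 LPC mouse (adjusted p up to 0.0989). Il1f6 went from 19.4, 26.5, 18.6 and 13.9 CPM to 26.3, 52.7, 59.7 and 52.5 CPM, with a change of 1.28 ± 0.35 with LPC and 1.15 with vehicle, and its call ended in 7 of the 8 fits without 1 LPC mouse (adjusted p up to 0.0866). Il1f10 (IL-38), an epidermal member with antagonist activity, fell from 2.72, 7.04, 10.2 and 5.04 CPM to 0.662, 0.652, 0.598 and 0.986 CPM, without overlap (-3.09 ± 0.59, adjusted p = 0.00895). Il1b was not called despite groups that did not overlap: it had 92.0, 49.7, 16.5 and 238 CPM and 938, 303, 835 and 313 CPM (2.59 ± 1.12, adjusted p = 0.131). Among 20 inflammasome and pyroptosis genes 4 rose (Casp1, Casp4, Gsdmd and Mefv), against 6.87% of all genes, but 0 without day 4 mouse 2 or mouse 3. Without day 7 mice 2 and 4 the list had 0 rises and 2 falls, and without mice 1 and 3 it had 8 and 0. The calls of Casp1, Casp4 and Mefv ended in 6, 5 and 5 of 8 fits without 1 LPC mouse. Gsdmd, the pore-forming gasdermin D, had 14.1, 9.43, 12.1 and 19.6 CPM and 26.2, 53.8, 18.7 and 59.8 CPM (1.52 ± 0.34, adjusted p = 0.0151), higher in mice 2 and 4. The Gsdmd call ended without day 4 mouse 2 (adjusted p = 0.0544) and without day 4 mouse 3 (adjusted p = 0.0525). Nlrp3 was high in mice 1 and 3 (182, 27.9, 187 and 28.4 CPM in day 7 mice 1 to 4, 16.1, 21.2, 6.75 and 66.6 CPM at day 4) and did not pass (1.94 ± 0.92, adjusted p = 0.166).

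Genes induced by type I interferon had positive fold changes throughout. All 28 tested had a log2 fold change above 0 (52.7% of all genes did), with a median of 2.12 (vehicle -0.07). Of the 28, 7 rose (6.87% of all genes did): Oas2, Oas3, Oasl1, Zbp1, Cmpk2, Ifi44l and Ifit2. DESeq2 called 18. List scores (mean log2 CPM of the members) lay 2.4 and 3.5 above the day 4 mean in day 7 mice 2 and 4, and 0.6 and 1.1 above it in mice 1 and 3. The count was 22 without mice 1 and 3, where 2640 of all genes rose, and 1 without mice 2 and 4, where 851 did. It was also 1 in each fit without day 4 mouse 1, 2 or 3 or day 7 mouse 4. Interferon factors act on such genes through the interferon-stimulated response element (ISRE), so the promoter stretches around its letters are shown here for the called gene that holds them and for a pair of other listed genes. The letters searched were GAAA, then any 2 bases, then GAAA, on both strands and with overlapping matches counted, in windows from 250 bases before to 50 after each start in RefSeq (GRCm38.p6). They were found in 3.44% of 32851 promoters, which is 3.99% of 27025 genes, and in 12 of 21 listed genes that the table holds, but among the 5 called genes it holds in Oas3 alone. Sequences read 5′ to 3′ in the direction of the gene, with the matched letters in capitals.
Oas3 (chr5:120777690-120777769, minus strand, 80 bases): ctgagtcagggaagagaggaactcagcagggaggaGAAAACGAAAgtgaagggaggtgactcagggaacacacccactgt
Oas1a (chr5:120907526-120907580, minus strand, 55 bases): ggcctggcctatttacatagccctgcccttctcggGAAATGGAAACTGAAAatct
Isg15 (chr4:156200840-156200931, minus strand, 92 bases): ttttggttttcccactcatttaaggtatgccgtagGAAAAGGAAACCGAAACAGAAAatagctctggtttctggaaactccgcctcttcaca
Oas1a holds 2 overlapping matches and Isg15 3, and a match is a description of letters, not of binding.

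Oas3 (Entrez 246727, chromosome 5, 120753098 to 120777684), an enzyme that makes the 2-5A signal on sensing double-stranded RNA, had 5.76, 4.89, 5.45 and 13.6 CPM in day 4 mice 1 to 4 and 49.0, 53.5, 49.9 and 124 CPM in day 7 mice 1 to 4. All 4 day 7 mice lay above all day 4 mice, and mouse 4 was highest on both days (3.21 ± 0.64, adjusted p = 0.01). Its difference from the vehicle course was 3.09 ± 0.85 (adjusted p = 0.159). Oas2 had 3.00 ± 0.74 (adjusted p = 0.0239), Oasl1 3.38 ± 0.86 (adjusted p = 0.0266) and Zbp1, a sensor of Z-form nucleic acids, 3.19 ± 0.77 (adjusted p = 0.022). Leaving out 1 LPC mouse ended these 3 calls in 5, 4 and 4 of 8 fits and that of Oas3 in 0. The Oas genes are paralogs, so their counts may share reads. Isg15, a ubiquitin-like protein, had 18.7, 22.7, 51.2 and 63.5 CPM and 95.3, 99.5, 79.3 and 291 CPM (1.86 ± 0.64, adjusted p = 0.0719), and Oas1a 2.75 ± 0.87 (adjusted p = 0.0545); neither passed. Tgtp2, an interferon-induced GTPase with a near-identical copy, and Ifi209 were among the largest rises. Tgtp2 had 1.12, 0, 0.727 and 1.78 CPM and 5.96, 28.8, 5.38 and 61.5 CPM (4.80 ± 0.94, adjusted p = 0.00951), and kept its call without any 1 LPC mouse.

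Of 22 genes of Langerhans cells, dendritic cells and MHC class II tested, 5 fell (Cd207, H2-Aa, H2-Ab1, H2-Eb1 and Ciita; all genes 4.13%) and 2 rose (Batf3 and Clec9a; all genes 6.87%). The rises were 0 without day 4 mouse 2 or 3, day 7 mouse 2 or 4, or day 7 mice 2 and 4 together. Cd207 (Entrez 246278, chromosome 6, 83671207 to 83677857), which encodes langerin of Langerhans cells, had 25.0, 8.26, 11.9 and 12.01 CPM at day 4 and 4.63, 1.66, 2.93 and 2.70 CPM at day 7, without overlap (-2.26 ± 0.37, adjusted p = 0.00445). The vehicle course had -1.27, from 9.52, 9.24, 11.7 and 10.1 CPM to 2.71, 3.40, 5.53 and 5.14 CPM, and the difference was -0.99 ± 0.50 (adjusted p = 0.326). H2-Aa, a class II chain, had 122, 89.0, 146 and 173 CPM and 84.7, 62.3, 42.8 and 62.5 CPM (-1.07 ± 0.23, adjusted p = 0.0143). H2-Eb1 had 113, 33.8, 129 and 150.5 CPM and 35.7, 29.0, 35.9 and 34.7 CPM, where day 4 mouse 2 lay among the day 7 values (-1.66 ± 0.37, adjusted p = 0.0157). The calls of Cd207, H2-Aa and H2-Eb1 held in each fit without 1 LPC mouse. The list counts were 6 down without mice 2 and 4 and 5 down without mice 1 and 3, so the list had falls with either pair. Ccl17, a chemokine of dendritic cells, fell as well, from 3.26, 3.66, 3.01 and 2.49 CPM to 1.20, 0.201, 0.272 and 0.260 CPM (-2.69 ± 0.69, adjusted p = 0.0269). The Ccl17 call ended in 5 of the 8 fits without 1 LPC mouse (adjusted p up to 0.0685).

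Lymphocyte genes were low in counts and highest in mice 2 and 4. Of 22 T cell and cytotoxic genes 4 rose (Gzma, Gzmb, Il2rb and Lck) and Cd28 fell, against 6.87% up and 4.13% down over all genes. Gzma, a granzyme of killer cells, had 4 counts over the day 4 mice and 412 over the day 7 mice, a ratio of 108 (42 to 400, counting error only), with 0.181, 6.62, 0.272 and 14.1 CPM in day 7 mice 1 to 4. Gzmb had 0.694, 0.440, 0.363 and 1.37 CPM and 5.54, 6.72, 1.74 and 20.1 CPM (3.56 ± 0.94, adjusted p = 0.0297). The Gzmb call ended in 4 of the 8 fits without 1 LPC mouse (adjusted p up to 0.0873). For Gzma the call ended in 6 of 8. The T cell markers Cd3e, Cd3g and Lck together summed to 2.39 to 4.70 CPM at day 4 and to 2.12 to 9.65 CPM at day 7, which overlap, and of these Lck was called. Cd28, a costimulatory receptor, had 6.19, 4.84, 2.70 and 8.80 CPM and 1.20, 3.06, 2.28 and 1.45 CPM (-1.49 ± 0.39, adjusted p = 0.0305). The Cd28 call ended in 5 of the 8 fits without 1 LPC mouse (adjusted p up to 0.0727). With mice 2 and 4 left out 0 genes of the list rose and 1 fell, and with mice 1 and 3 left out 12 rose (2640 over all genes). Without day 4 mouse 2 or 3, or day 7 mouse 4, 0 rose. Mast cell genes gave 1 rise among 11 (6.87% of all genes rose), Hdc, which neutrophils also express.

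Of 26 sebaceous genes 6 fell and 1 rose (all genes 4.13% and 6.87%), with a median of -0.86 (vehicle -0.31), and 1 fell without day 4 mouse 2, day 4 mouse 3 or day 7 mouse 2. There were 6 falls without day 7 mice 2 and 4, and 6 without mice 1 and 3. Far2, a fatty acyl reductase that makes wax alcohols, had 277, 518, 573 and 235 CPM at day 4 and 107, 108, 78.2 and 103 CPM at day 7, without overlap (-2.02 ± 0.44, adjusted p = 0.0141), and kept its call without any 1 LPC mouse. Awat1, a wax synthase, had -2.14 ± 0.51 (adjusted p = 0.0211), Elovl3, a fatty acid elongase, -1.68 ± 0.42 (adjusted p = 0.0241) and Cidea, a lipid droplet protein, -1.92 ± 0.51 (adjusted p = 0.0299). These 3 lost the call in 4 of 8 fits without 1 LPC mouse. With the muscle score in the model 0 of the sebaceous falls were called. The sebocyte markers Scd1, Mc5r, Awat1 and Awat2 summed to 1989 to 5291 CPM at day 4 and 907 to 3434 CPM at day 7.

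Among 24 regulators of hair growth 4 fell (Bmp2, Sox9, Sox21 and Shh) and 1 rose (all genes 4.13% and 6.87%). Bmp2 (Entrez 12156, chromosome 2, 133552159 to 133562896), a bone morphogenetic protein of epidermis and follicle, had 45.8, 45.9, 42.6 and 48.5 CPM in day 4 mice 1 to 4 and 10.6, 4.87, 11.1 and 11.5 CPM in day 7 mice 1 to 4. The day 4 mice were close to each other and all above the day 7 mice, with a log2 change of -2.27 ± 0.31 (adjusted p = 0.00315). Vehicle mice had 17.1, 15.8, 20.004 and 12.3 CPM at day 4 and 8.28, 20.8, 12.1 and 20.98 CPM at day 7, so the day 4 level with LPC was above every vehicle mouse, and the difference between the courses was -2.20 ± 0.42 (adjusted p = 0.0908). Sox9, a factor of follicle stem cells and cartilage, had 99.7, 73.5, 71.6 and 63.0 CPM and 29.7, 25.0, 23.1 and 40.7 CPM (-1.38 ± 0.27, adjusted p = 0.00935), and the vehicle course had -1.20. Fgf7, a fibroblast growth factor for keratinocytes, rose, from 11.7, 8.26, 11.0 and 16.03 CPM to 30.0, 31.5, 39.6 and 15.8 CPM (1.31 ± 0.27, adjusted p = 0.0121). Bmp2, Sox9 and Fgf7 kept their calls without any 1 LPC mouse. Hair shaft keratins had a median of -2.34, but -3.44 with vehicle, and 1 of 36 (Krt32) was called lower, against 4.13% of all genes. Their day 4 levels differed between mice, as in Krt32 with 9.45, 60.6, 102 and 1.68 CPM.

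The score of the clock list was below the day 4 mean in every day 7 mouse. Of 19 tested, 7 fell (Hlf, Tef, Bhlhe41, Ciart, Rora, Per2 and Cry2) and 1 rose (Nfil3), against 4.13% and 6.87% of all genes. The list had a median of -0.72 (vehicle -0.24). The time of day at which mice were killed is not given in the labels, and its part in this result was not tested. The list had falls with either pair of day 7 mice: 7 without mice 2 and 4 (866 over all genes), and 8 without mice 1 and 3 (1690 over all genes). With 1 LPC mouse left out the falls were 2 (without day 4 mouse 3) to 8. Clock and BMAL1 act on the E-box CACGTG, which was searched in the same promoter windows and found in 7.15% of all promoters (8.09% of genes), in 5 of 16 listed genes in the table and in 3 of the 7 called ones there, namely Ciart, Tef and Bhlhe41. Their stretches are shown with the E-box in capitals, and Tef has 2 starts.
Ciart (chr3:95882232-95882379, minus strand, 148 bases): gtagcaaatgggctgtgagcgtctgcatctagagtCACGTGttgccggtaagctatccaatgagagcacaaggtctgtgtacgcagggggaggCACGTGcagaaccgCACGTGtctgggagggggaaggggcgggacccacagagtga
Tef, start 1 (chr15:81802511-81802586, plus strand, 76 bases): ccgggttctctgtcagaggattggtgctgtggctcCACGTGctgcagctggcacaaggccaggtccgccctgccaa
Tef, start 2 (chr15:81811241-81811316, plus strand, 76 bases): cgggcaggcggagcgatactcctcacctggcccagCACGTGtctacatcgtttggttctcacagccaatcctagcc
Bhlhe41 (chr6:145865533-145865608, minus strand, 76 bases): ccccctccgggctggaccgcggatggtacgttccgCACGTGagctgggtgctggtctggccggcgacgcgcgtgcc
Ciart holds the letters 3 times and the others once each.

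Hlf (Entrez 217082, chromosome 11, 90336535 to 90390917), a PAR bZIP factor driven by the clock, had 36.5, 67.2, 73.7 and 36.7 CPM in day 4 mice 1 to 4 and 11.3, 8.28, 13.1 and 10.3 CPM in day 7 mice 1 to 4. The groups did not overlap and the day 7 mice were close together (-2.31 ± 0.35, adjusted p = 0.00322), and the difference from the vehicle course was -1.90 ± 0.47 (adjusted p = 0.149). Ciart (Entrez 229599, chromosome 3, 95878500 to 95882257), a repressor of CLOCK and BMAL1, had 24.8, 28.4, 39.0 and 23.4 CPM and 12.4, 7.18, 6.90 and 8.72 CPM (-1.72 ± 0.38, adjusted p = 0.0158). The Ciart call ended without day 4 mouse 3 (adjusted p = 0.0532). Rora, the nuclear receptor that drives Bmal1, went from 124, 173, 172 and 119 CPM to 51.0, 75.3, 66.5 and 72.8 CPM (-1.14 ± 0.21, adjusted p = 0.00696), with a difference from the vehicle course of -1.43 ± 0.29 (adjusted p = 0.107). Tef, another PAR bZIP factor, had -1.01 ± 0.25 (adjusted p = 0.024) and the repressor Bhlhe41 -1.61 ± 0.40 (adjusted p = 0.0247). Hlf and Rora kept their calls in every fit without 1 LPC mouse; for Tef its call ended without day 4 mouse 2 (adjusted p = 0.0691) and without day 4 mouse 3 (adjusted p = 0.0648), and for Bhlhe41 its call ended in 3 of the 8 fits without 1 LPC mouse (adjusted p up to 0.0715).

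Receptors for lysolipids and enzymes of LPC metabolism included 8 rises and 1 fall among 38 tested (all genes 6.87% and 4.13%), with a median of 0.12. There were 4 to 8 rises with 1 LPC mouse left out. Without day 7 mice 2 and 4 there were 9 rises and 3 falls, and without mice 1 and 3 there were 5 and 2. Gpr132, a receptor of leukocytes described as responsive to LPC, had 5.39, 5.77, 4.00 and 8.75 CPM at day 4 and 18.7, 10.7, 11.1 and 11.1 CPM at day 7, without overlap and with mouse 1 highest (1.11 ± 0.29, adjusted p = 0.0291). The Gpr132 call ended in 4 of the 8 fits without 1 LPC mouse (adjusted p up to 0.0875). Its proton-sensing relative Gpr65 had 0.907, 0.635, 0.415 and 0.763 CPM and 3.07, 9.28, 3.10 and 7.32 CPM (3.06 ± 0.58, adjusted p = 0.00822), and Ptafr, the receptor for platelet-activating factor, 11.2, 7.72, 5.82 and 14.0 CPM and 45.7, 39.3, 38.5 and 30.3 CPM (1.99 ± 0.40, adjusted p = 0.011). All 3 receptors were higher in each day 7 mouse than in each day 4 mouse. Pla2g7 (Entrez 27226, chromosome 17, 43567994 to 43612202), the phospholipase that cleaves platelet-activating factor and oxidized phospholipids and thereby releases lysolipids, had 20.1, 20.03, 20.7 and 29.6 CPM in day 4 mice and 78.3, 107, 80.1 and 96.4 CPM in day 7 mice. It was among the genes with the smallest p-values (2.00 ± 0.25, adjusted p = 0.00216), against a vehicle change of 0.32 and a difference of 1.68 ± 0.35 (adjusted p = 0.107). Lpcat1, an acyltransferase that turns LPC back into phosphatidylcholine, had 13.3, 14.2, 12.9 and 11.8 CPM and 16.7, 28.9, 24.1 and 19.98 CPM (0.78 ± 0.16, adjusted p = 0.0121). Gpr65, Ptafr, Pla2g7 and Lpcat1 kept their calls without any 1 LPC mouse. The other rises were Gdpd1, Pla2g15 and Pla2g4b, and the fall was Lpar3, a receptor for lysophosphatidic acid.

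**Figure D3:**
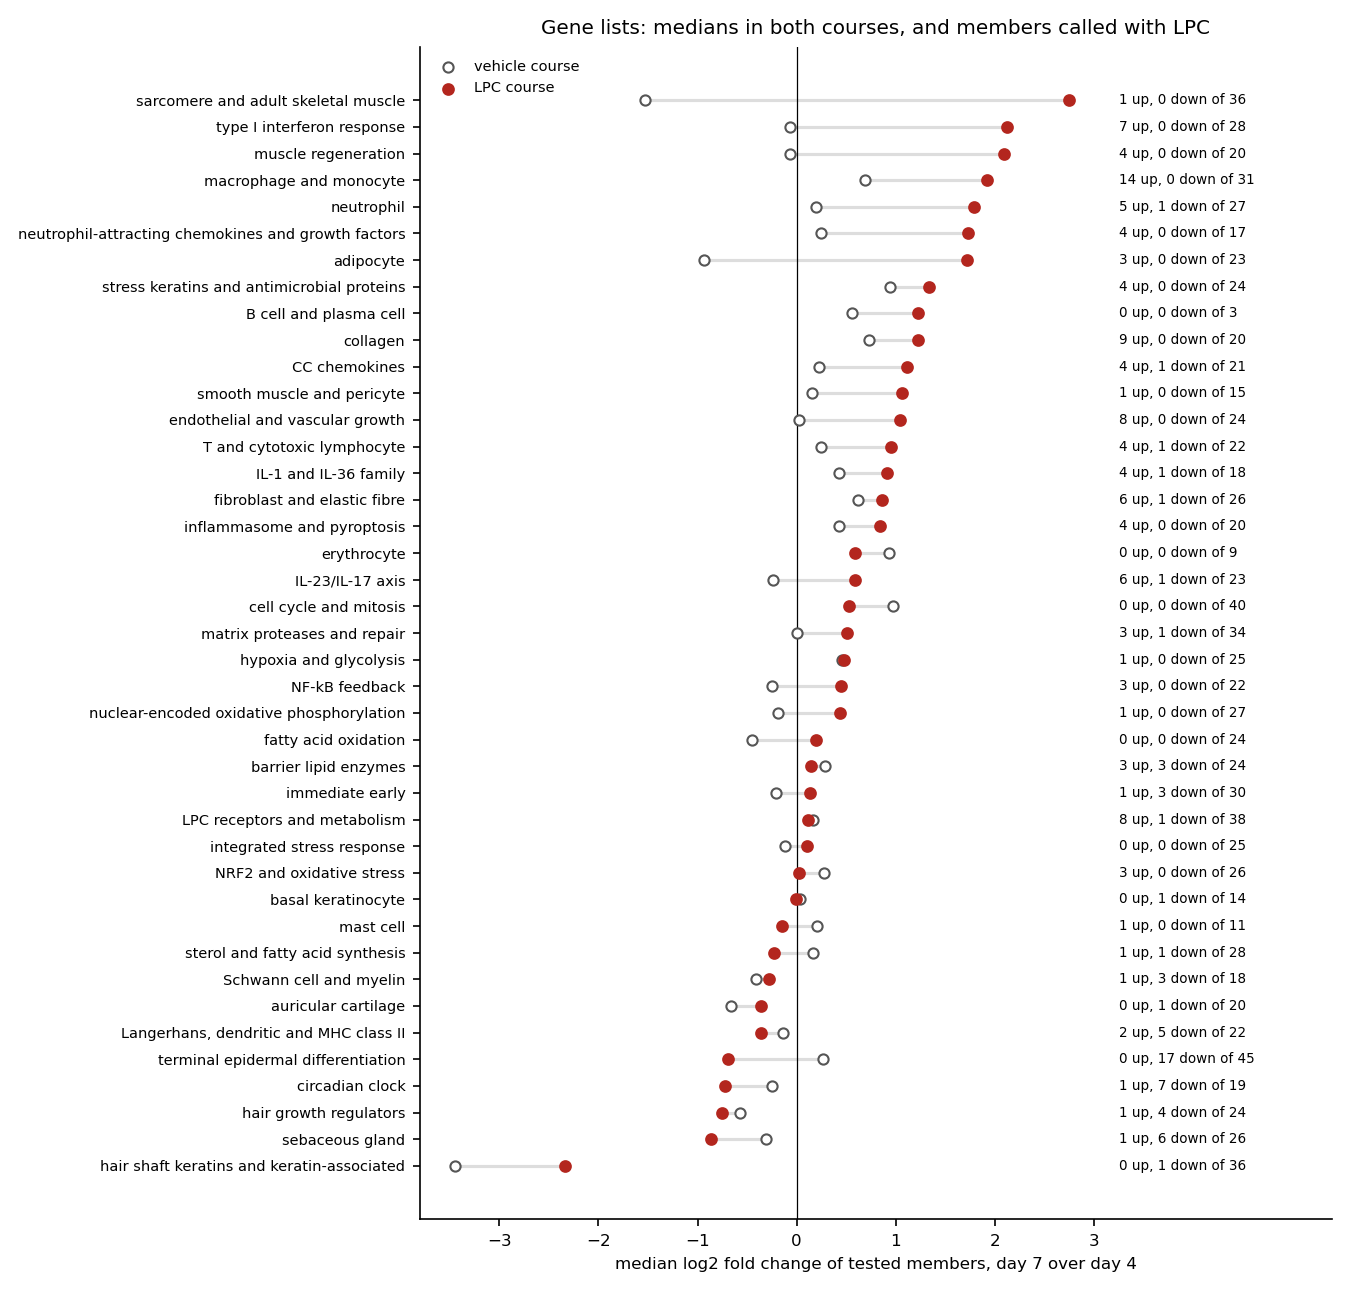
For each of the 41 gene lists, the median log2 fold change of its tested members (day 7 over day 4, x axis) in the LPC course (red) and the vehicle course (open), with the number of members called up and down with LPC at the right. Terminal differentiation is at -0.69 with LPC and 0.26 with vehicle, and the interferon list at 2.12 and -0.07; no list was tested against other genes.

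Of 24 endothelial genes 8 rose and 0 fell (median 1.04, vehicle 0.02), and of 20 collagen genes 9 rose and 0 fell (median 1.22, vehicle 0.73), against 6.87% and 4.13% of all genes. Both counts were lower without mice 2 and 4, at 1 up and 1 down for endothelial genes and 2 up and 3 down for collagens. Without mice 1 and 3 there were 12 up and 1 down for endothelial genes, and 11 up and 1 down for collagens. Endothelial rises were 0 without day 4 mouse 2 or mouse 3, and collagen rises 0 without day 4 mouse 2. Selp, the P-selectin of activated endothelium and platelets, had 24.8, 7.57, 8.67 and 21.3 CPM at day 4 and 75.4, 57.4, 44.4 and 75.0 CPM at day 7, without overlap (2.02 ± 0.51, adjusted p = 0.0261), while the vehicle course had -1.10 and the difference was 3.11 ± 0.71 (adjusted p = 0.132). The Selp call ended without day 4 mouse 2 (adjusted p = 0.078) and without day 4 mouse 3 (adjusted p = 0.0809). Cdh5, the cadherin of endothelial junctions, had 37.7, 17.0, 28.9 and 44.2 CPM and 48.6, 156, 54.4 and 101 CPM (1.5 ± 0.39, adjusted p = 0.029). The Cdh5 call ended in 5 of the 8 fits without 1 LPC mouse (adjusted p up to 0.0861). Col18a1, a basement membrane collagen, went from 132, 88.0, 106 and 128 CPM to 225, 272, 253 and 207 CPM (1.08 ± 0.23, adjusted p = 0.0139). The Col18a1 call ended without day 4 mouse 2 (adjusted p = 0.0505). Col4a1, a chain of the main basement membrane collagen, had 1.38 ± 0.33 (adjusted p = 0.0197) and Col4a2 1.23 ± 0.29 (adjusted p = 0.0207), both lost in 3 of 8 such fits.

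Fibroblast and elastic fibre genes gave 6 rises and 1 fall among 26 (all genes 6.87% and 4.13%). The counts were 3 and 4 without day 7 mice 2 and 4 (median -0.11), 15 and 1 without mice 1 and 3 (median 1.32), and 1 and 1 without day 4 mouse 2. Fbln1, an elastic fibre glycoprotein, had 27.5, 32.8, 32.7 and 39.8 CPM and 86.6, 77.3, 60.1 and 105 CPM (1.31 ± 0.23, adjusted p = 0.00581). Loxl4, a lysyl oxidase that crosslinks matrix, went down, with 107, 69.7, 82.0 and 141 CPM at day 4 and 27.5, 24.04, 14.8 and 20.5 CPM at day 7 (-2.20 ± 0.37, adjusted p = 0.0052). Neither gene overlapped between days, and both kept their calls without any 1 LPC mouse. Matrix proteases and repair genes gave 3 rises and 1 fall among 34, near the shares of all genes, and 8 and 3 without day 7 mice 2 and 4 (median 0.86) but 3 and 5 without mice 1 and 3 (median -0.17). Tgfb1 had 69.0, 55.2, 67.3 and 75.7 CPM and 139.8, 106, 94.7 and 82.3 CPM (0.66 ± 0.16, adjusted p = 0.0197). The Tgfb1 call ended without day 4 mouse 2 (adjusted p = 0.0659) and without day 4 mouse 3 (adjusted p = 0.0556). Mmp10, a stromelysin of wound-edge keratinocytes, had 100.2, 16.4, 37.1 and 55.8 CPM and 31.5, 1.10, 35.4 and 3.48 CPM, with day 7 mice 2 and 4 below all others, and did not pass (-1.55 ± 0.80, adjusted p = 0.202). Timp3, a protease inhibitor, fell from 699, 461, 476 and 465 CPM to 66.2, 252, 63.6 and 321 CPM (-1.58 ± 0.46, adjusted p = 0.0421). The Timp3 call ended in 7 of the 8 fits without 1 LPC mouse (adjusted p up to 0.0909).

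Signalling genes gave few calls. Of 22 NF-kB feedback genes 3 rose and 0 fell (all genes 6.87% and 4.13%). The 3 were Nfkbie, an inhibitor of NF-kB (0.85 ± 0.17, adjusted p = 0.0116), Tnfaip2 (1.46 ± 0.31, adjusted p = 0.013) and Selp. Nfkbie had 13.2, 11.6, 11.5 and 19.2 CPM at day 4 and 29.9, 23.6, 23.6 and 23.3 CPM at day 7, and Tnfaip2 98.8, 79.8, 81.4 and 120.4 CPM and 368, 167, 315 and 201 CPM, both without overlap. Among 30 immediate early genes 3 fell and 1 rose (all genes 4.13% and 6.87%). The direction turned with the mice: 2 fell and 7 rose without day 7 mice 2 and 4 (median 0.52), and 8 fell and 1 rose without mice 1 and 3 (median -0.46). Dusp2, a phosphatase of MAP kinases in leukocytes, rose from 4.96, 7.82, 7.84 and 6.87 CPM to 22.03, 12.5, 12.9 and 43.8 CPM (1.73 ± 0.37, adjusted p = 0.0132), while the vehicle course had -0.93 without overlap of its days. Myc fell from 217, 154, 252 and 252 CPM to 149, 82.5, 123 and 118 CPM (-0.89 ± 0.20, adjusted p = 0.0164). The Myc call ended without day 4 mouse 3 (adjusted p = 0.0558). Ccn2, a matricellular protein induced by transforming growth factor beta, had -1.02 ± 0.23 (adjusted p = 0.0163). In the NRF2 list 3 of 26 rose, against 6.87% of all genes. They were Gsta4, a glutathione transferase (2.07 ± 0.43, adjusted p = 0.0121, vehicle 1.47), and the ferritin chains Fth1 (0.99 ± 0.27) and Ftl1 (0.83 ± 0.23). Both ferritin chains lost the call in 5 of 8 fits without 1 LPC mouse. The list had 4 rises and 1 fall without day 7 mice 2 and 4, and 3 and 8 without mice 1 and 3. Hmox1, haem oxygenase 1, had 212, 111, 273 and 186 CPM and 187, 298, 235 and 102 CPM (0.07 ± 0.31, adjusted p = 0.897), and Gdf15, a stress-induced cytokine, 5.39, 4.79, 3.58 and 4.02 CPM and 7.10, 1.76, 2.61 and 1.92 CPM (-0.41 ± 0.43, adjusted p = 0.543).

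Several groups gave few or 0 calls, against 6.87% up and 4.13% down over all genes. All 40 cell cycle genes had a log2 fold change above 0 (52.7% of all genes did), with a median of 0.53 (vehicle 0.97). None was called by edgeR with all mice, 13 had an unadjusted p below 0.05 and DESeq2 called 5. The edgeR count was 6 rises without day 7 mice 2 and 4, 0 without mice 1 and 3, and 2 with the 8 LPC libraries alone. Mki67, a marker of dividing cells, had 124, 131, 69.9 and 112 CPM and 87.2, 133, 219.7 and 76.1 CPM, with overlap (0.24 ± 0.38, adjusted p = 0.705). With all mice integrated stress response genes gave 0 calls of 25 (2 up and 2 down at an unadjusted p below 0.05, DESeq2 1 and 1). Fatty acid oxidation gave 0 of 24 (5 and 2, DESeq2 3 and 0), erythrocyte genes 0 of 9 (0 and 1, DESeq2 0 and 0) and B cell genes 0 of 3 (1 and 1, DESeq2 0 and 0). Without day 7 mice 2 and 4, stress response genes had 3 rises and 0 falls and fatty acid oxidation 0 and 3. Without mice 1 and 3 these lists had 1 and 4, and 5 and 0. Hypoxia and glycolysis had 1 call of 25, the glucose transporter Slc2a3, with 5.07, 11.4, 3.69 and 16.6 CPM and 160.3, 15.6, 84.3 and 15.9 CPM (2.91 ± 0.75, adjusted p = 0.0275), high in mice 1 and 3. The Slc2a3 call ended in 4 of the 8 fits without 1 LPC mouse (adjusted p up to 0.0815). The hypoxia list had 5 rises and 0 falls without day 7 mice 2 and 4, and 0 and 4 without mice 1 and 3. Sdhd of oxidative phosphorylation was the sole call of 27 (0.60 ± 0.18) and lost it in each of the 8 fits. All 27 had a log2 fold change above 0, and 14 did not overlap between the days (17.1% of all genes). At an unadjusted edgeR p below 0.05 there were 15 rises and 0 falls, and DESeq2 called 7 rises. Scd2, a desaturase, rose among 28 genes of sterol and fatty acid synthesis (1.21 ± 0.26, adjusted p = 0.0146), and its call ended without day 4 mouse 2 (adjusted p = 0.0519). Elovl6, an elongase, fell. The Elovl6 call ended in 7 of the 8 fits without 1 LPC mouse (adjusted p up to 0.125).

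Among LPC mice, the scores of sarcomere and fat genes were highest in day 7 mice 2 and 4. The cartilage score was lowest in day 7 mice 1 and 3. All 36 sarcomere genes had a log2 fold change above 0 (52.7% of all genes did), with a median of 2.75 (vehicle -1.53). Of these, 1 was called higher (6.87% of all genes were): Des, the intermediate filament desmin. Des had 172, 40.2, 38.5 and 147 CPM at day 4 and 185, 1245, 67.7 and 1593 CPM at day 7, high in mice 2 and 4 and near or within the day 4 range in mice 1 and 3 (2.96 ± 0.91, adjusted p = 0.0497). The Des call ended in 6 of the 8 fits without 1 LPC mouse (adjusted p up to 0.129). DESeq2 called 20 of the 36, against 1884 rises over all genes. Without mice 2 and 4 the list's median was -1.04 with 0 calls. Without mice 1 and 3 it was 3.69 with 31 calls, in a fit with 2640 rises over all genes. Of 20 muscle regeneration genes 4 rose (Actc1, Mymk, Mymx and Cdh15), against 6.87% of all genes. Mymk, the fusion protein of forming myofibres, had 3.01, 26.1, 0.109 and 0.104 CPM in day 7 mice 1 to 4 and at most 0.458 CPM at day 4 (5.53 ± 1.59, adjusted p = 0.0398). Actc1, the actin of developing muscle, had 2.77, 103, 0.163 and 3.37 CPM and at most 0.571 CPM (5.76 ± 1.57, adjusted p = 0.033). Day 7 mouse 2 held most of both; for Mymk its call ended in 4 of the 8 fits without 1 LPC mouse (adjusted p up to 0.195), and for Actc1 its call ended in 5 of the 8 fits without 1 LPC mouse (adjusted p up to 0.211). Adipocyte genes gave 3 rises of 23 with all mice (6.87% of all genes rose), 3 falls without mice 2 and 4, and 16 rises without mice 1 and 3. Thrsp, a lipogenic factor, had 1.23, 0.342, 0.675 and 0.254 CPM and 0.120, 8.98, 0.217 and 143 CPM (5.93 ± 1.74, adjusted p = 0.0422). The Thrsp call ended in 6 of the 8 fits without 1 LPC mouse (adjusted p up to 0.252). Cartilage genes gave 1 fall of 20 with all mice (4.13% of all genes fell) and 14 falls without mice 2 and 4. Acan, the cartilage proteoglycan, stood at 23.6 and 30.0 CPM in mice 1 and 3 against 157 CPM or more at day 4. The part of muscle, fat and cartilage in the other results was not tested, beyond the fits above and the fit with the muscle score as a covariate, which called 558 genes higher and 332 lower. In that fit 10 terminal differentiation genes fell, 6 Langerhans and MHC class II genes fell, 5 clock genes fell, 8 macrophage genes rose and 1 interferon-induced gene rose.

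**Figure D4:**
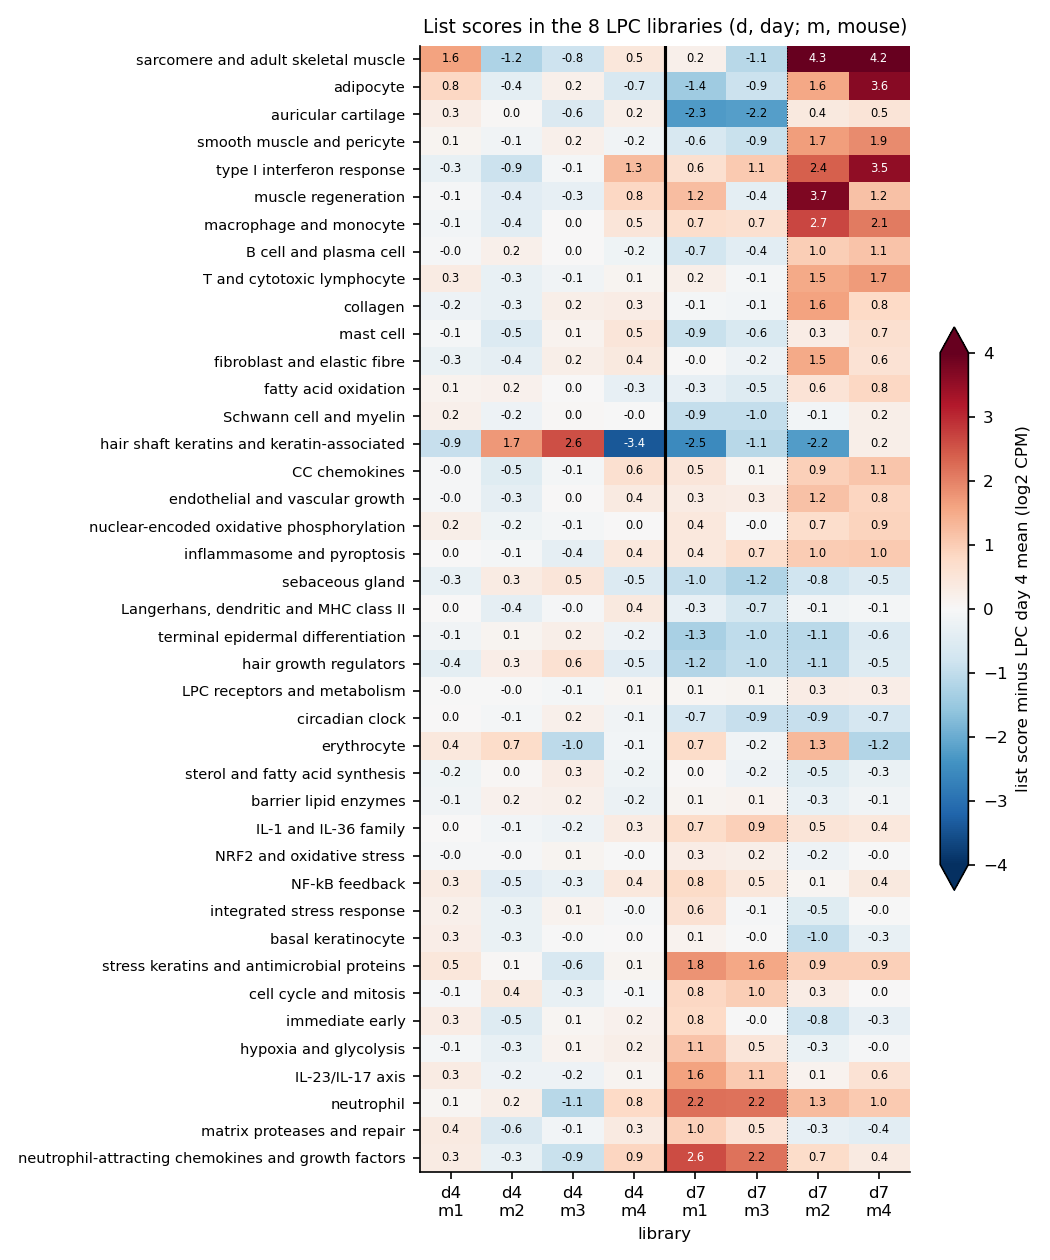
List scores (mean log2 CPM of the members) in the 8 LPC libraries, minus the mean of the 4 day 4 libraries; columns are day 4 (d4) and day 7 (d7) mice (m), with day 7 mice 1 and 3 beside each other and then 2 and 4. Rows at the top are high in day 7 mice 2 and 4 (sarcomere 4.3 and 4.2), rows at the bottom in mice 1 and 3 (neutrophil chemokines 2.6 and 2.2), and the terminal differentiation, clock and sebaceous rows are below 0 in all 4.

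The 15 largest rises and 15 largest falls among called genes whose log2 CPM averaged 1 or more mixed stable and unstable calls. Of these 30 genes, 3 rises and 7 falls were called in every fit without 1 LPC mouse, among them the rises Tgtp2 and Fcgr1 and the falls Krt2, Cyp2b23, Mt4, Lce1l, Adh6a, Guca2a and Lce1k. The largest rise was Ms4a4b, a membrane protein of T cells with close paralogs, with 0.213, 0.293, 0.0519 and 0.153 CPM and 0.301, 23.99, 1.14 and 48.9 CPM (6.65 ± 1.55, adjusted p = 0.0186). The Ms4a4b call ended without day 4 mouse 2 (adjusted p = 0.0561) and without day 4 mouse 3 (adjusted p = 0.0623). Ms4a4c, Cd300e, Fcrls, Ifi209 and Cxcl9 had the same pattern, with day 7 mice 2 and 4 highest. Cxcl9, an interferon gamma-induced chemokine for T cells, had 1.49, 0.293, 0.831 and 1.27 CPM and 2.71, 14.7, 1.79 and 46.8 CPM (4.08 ± 1.08, adjusted p = 0.0302). The Cxcl9 call ended in 6 of the 8 fits without 1 LPC mouse (adjusted p up to 0.0881). Sprr2k, a small proline-rich envelope protein with close paralogs, was instead high in mice 1 and 3, with 1.55, 0.440, 0.0519 and 0.458 CPM and 17.6, 6.22, 22.004 and 3.22 CPM (4.29 ± 1.24, adjusted p = 0.0398), and its call ended in 7 of the 8 fits without 1 LPC mouse (adjusted p up to 0.107). Ky and Thrsp, of muscle and fat, were also among the rises, as were Actc1, Mymk and Il17f.

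Among the falls, Cyp2b23, a cytochrome P450, had 7.95, 30.3, 27.5 and 6.16 CPM at day 4 and 1.63, 0.602, 0.652 and 0.415 CPM at day 7, without overlap (-4.45 ± 0.75, adjusted p = 0.00516). Adh6a, an alcohol dehydrogenase, had 41.5, 76.1, 98.7 and 90.7 CPM and 4.45, 4.82, 5.22 and 15.1 CPM (-3.37 ± 0.59, adjusted p = 0.00581), and Guca2a, the hormone guanylin, 5.92, 4.98, 7.63 and 5.80 CPM and 0.903, 0.703, 0.543 and 0.467 CPM (-3.21 ± 0.68, adjusted p = 0.0129). In all 3 the day 7 mice lay below each day 4 mouse. Krt24, a keratin of differentiated epithelium, had the largest fall, from 27.6, 87.6, 130.1 and 23.8 CPM to 3.43, 0.1004, 0.489 and 2.34 CPM (-5.42 ± 1.43, adjusted p = 0.0302). The Krt24 call ended in 4 of the 8 fits without 1 LPC mouse (adjusted p up to 0.0746). Mlana, a melanosome protein of pigment cells, had 4.22, 5.18, 8.15 and 6.31 CPM and 1.32, 0.301, 0.598 and 0.311 CPM (-3.24 ± 0.87, adjusted p = 0.0316). The Mlana call ended in 5 of the 8 fits without 1 LPC mouse (adjusted p up to 0.079). Alox12e, an epidermal lipoxygenase, had -3.23 ± 0.83 (adjusted p = 0.0277) and Bhmt, which methylates homocysteine, -4.79 ± 1.16 (adjusted p = 0.0213), each lost in 3 of 8 fits. The hair genes Krtap5-4, Krtap12-1 and Krt32 and Lyg2, a lysozyme g-like gene, had day 4 levels that ran, for Krtap12-1, from 0.0509 to 42.6 CPM, and their calls ended in 6 or 7 of 8 fits.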

How the data were processed

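RNA of whole ear lesions was extracted with TRIpure and sequenced on BGISEQ-500, per the labels' protocols. Alignment to GRCm38 with Bowtie2 is named in the submitters' processing notes, while versions and strand setting were not given in the sources used here. For each gene of each library the authors deposited an RSEM expected count, which was rounded to a whole number, and an FPKM value, which was used in an alternative with 0.1 or 1 added before the log. A gene that a library's file does not list was taken as 0. Groups and days came from the titles, while the names of the deposited files give days 3 and 6 in place of 4 and 7.

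Low counts were filtered by group, which kept 15782 of 19439 genes. All 16 libraries entered 1 model with a mean per group in edgeR 4.0.16 (TMM scaling, quasi-likelihood test, R 4.3.3), with contrasts for each course and for their difference, and Benjamini-Hochberg adjustment over all genes at 0.05. CPM values use the scaled library sizes, log2 CPM a prior count of 2, and errors are standard errors of the fold change with 4 libraries per group. Near-identical copies (Lce1, Sprr2, Krtap, Serpinb3, Ms4a4, Oas, Tgtp and H2 genes) and overlapping genes are uncertain, since reads may be divided between them.

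The 41 gene lists held 985 symbols, of which 968 matched the files. Genes named are the 15 largest rises and 15 largest falls of called genes whose log2 CPM averaged 1 or more, up to 4 genes with the smallest p in each list, and a fixed panel; 1 gene that this rule names is not reported here. Members, lists and rules were chosen with earlier results of these data known, and no list was tested against other genes. Alternatives were DESeq2 1.42.0, limma 3.58.1 (with voom or FPKM), other scaling and filters, the LPC libraries alone, covariates, a replicate term, and leaving out 1 mouse or a pair of mice. The labels speak of mice, 1 library each, so p-values measure the spread between these mice.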

Additional observations from a re-analysis of the deposited data

Results flagged for a closer look

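A mouse was picked out where its log2 CPM stood apart from the other 3 of its LPC group, with a gap to the nearest of them, as a share of the group's range, above Dixon's 95% critical value. Of 406 groups of 4 examined, 21 had such a mouse, 6 at day 4 and 15 at day 7, and chance gives about 1 in 20.

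At day 4, mouse 4 was high in Oas3 (log2 CPM 3.78, others up to 2.55), Pla2g7 (4.891, others up to 4.38) and Mymk (-0.834, others up to -2.68). Mouse 1 was high in Timp3 (9.449, others up to 8.89) and in Il22 (-1.926), which was at 0 counts in the others. Mouse 3 was low in S100a9 (7.789, others from 10.17).

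At day 7, mouse 1 was high in Il22 (2.384, others up to 0.60), Ccl17 (0.3862, others up to -1.42), Nfkbie (4.905, others up to 4.57) and Gpr132 (4.23, others up to 3.49). It was low in Il1f6 (4.723, others from 5.72) and Serpinb3a (5.703, others from 6.54). Mouse 2 was low in Bmp2 (2.314, others from 3.42) and H2-Eb1 (4.861, others from 5.12). Mouse 3 was low in Mpo (-1.91, others from -0.77) and Far2 (6.292, others from 6.68) and high in Krtap12-1 (0.3766, others up to -1.11). Mouse 4 was high in Oas3 (6.954, others up to 5.75) and Adh6a (3.927, others up to 2.41), and low in Ppbp (-0.09932, others from 2.80) and Scd2 (8.531, others from 8.91).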

How the results depend on the processing

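The count of 1736 genes in the LPC course was 1782 with size factors, 1579 with no filter, 1649 with a stricter one, 1214 with voom, and 1618 and 1515 with FPKM plus 0.1 and plus 1. It was 1100 with the 8 LPC libraries alone, 3073 with DESeq2, 890 with the muscle score and 944 with the hair score as covariate, 1717 without day 7 mice 2 and 4, 4330 without mice 1 and 3, and 518 to 2207 with 1 LPC mouse left out. For the difference between courses the count of 0 became 1 with size factors, 585 with DESeq2, 10 with voom, 1 with FPKM plus 1, 106 with the hair score, 68 without day 7 mice 2 and 4, 2798 without mice 1 and 3, and 0 to 214 with 1 mouse left out. It remained 0 with no filter, the stricter filter, FPKM plus 0.1 and the muscle score. Causes of these shifts were not tested.

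The replicate numbers did not pair the LPC mice: deviations of same-numbered mice correlated at -0.0919, -0.159, 0.0536 and -0.134, and no day 4 mouse correlated best with its own number. With the replicate number as a block the count was 901, and 0 for the difference.

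Fold changes of named genes kept direction and side of the threshold in 2481 of the comparisons with an alternative, lost the call in 847, gained it in 29 and reversed in 31. All reversals were in genes not called with all mice, except Thrsp (-1.81) and Ky (-0.59) without day 7 mice 2 and 4. Without day 7 mice 1 and 3 the log2 fold change was -1.07 for Il23a, -0.33 for Il6, -1.24 for Tnf, -1.81 for Cxcl1, 0.23 for Krt1, -0.058 for Krt5 and -0.076 for Mki67, and without mice 2 and 4 it was 0.13 for Gdf15. With voom it was -0.084 for Il23a, -0.28 for Tnf, -0.31 for Cxcl1 and -0.050 for Hmox1. With FPKM plus 0.1 and plus 1 it was -0.20 and -0.17 for Tnf and -0.086 and -0.085 for Hmox1. Tnf was at -0.16 with the hair score and -0.031 with the block. With 1 LPC mouse left out values ran from -0.45 to 0.39 for Tnf, -0.40 to 0.16 for Krt1, -0.17 to 0.30 for Hmox1 and -0.15 to 0.42 for Mki67.

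With 4 mice a group the number of mice limits the precision, and Il17a, Il22 and Gzma had only 3 or 4 counts in all at day 4.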
